A study of Mus musculus with 16 samples.

Results

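Susd4, Igfals, Hsd3b2, Cyp2b13 and Prlr are liver genes grouped here as growth hormone dependent genes of the hepatocyte, and they were followed in the livers of 16 male mice. They are 5 of the 7413 genes that could be named on the array, and 9 probes read them. The probes were found through the gene number written in each probe identifier, matched to mouse RefSeq symbols. The genes were chosen from measured values of these same animals: Susd4 and Cyp2b13 had some of the steepest slopes along the main axis of variation, and Igfals and Prlr had the smallest p of their gene lists in the genotype comparison. The value that chose Hsd3b2 is not recorded in the sources used here. Levels of these genes, across animals and between genotypes, are therefore given as descriptions without a test of their own.

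The animals were 7 Lactb transgenic mice and 9 FVB wildtype mice, all male and 23 weeks old. All 16 had eaten chow with 4% fat up to 11 weeks of age, and chow with 6% fat from then on. The labels do not give the promoter of the transgene, and no probe could be named Lactb, so the transgene product was not read here. Only 37.0% of the 24048 probes could be named, so a Lactb probe may be among the unnamed ones. The series' description counts 16 mice, 1 for each array, and the arrays were taken as independent animals. Replicate numbers below follow the order of deposit, and each title also carries a number whose meaning is not given.

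Growth hormone is released by the pituitary in pulses in male rodents and more continuously in females, and the liver reads that pattern. The hormone binds its receptor on the hepatocyte, the kinase JAK2 is activated, and the transcription factor STAT5 carries the signal to genes of the IGF axis and of steroid and drug metabolism. Many of these genes therefore differ between male and female mouse liver. Igfals encodes the acid-labile subunit that keeps IGF complexes in the circulation, Prlr the prolactin receptor, and Hsd3b2 an enzyme of the 3-beta-hydroxysteroid dehydrogenase family. Cyp2b13 encodes a cytochrome P450 that is predominant in female mouse liver, and Susd4 a sushi domain protein that inhibits complement.

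STAT5 binds the letters TTCNNNGAA, and promoter windows of the 5 genes are shown where these letters occur. RefSeq (GRCm38.p6) lists 10 transcript starts for the 5 genes, each given as 250 bases before and 50 after the start. The letters were found in 3 of the 10 windows, against 8.3% of all 32851 windows listed. These windows belong to Igfals and Prlr alone, which have 3 listed starts each, so the share is one of windows and not of genes. They read the same on both strands, so each match was counted once. The match is in capitals below. It begins 58 bases before the second listed start of Igfals, 236 bases before the first one, and 110 bases before the second listed start of Prlr.
Igfals, second start, chr17:24877981-24878280, plus strand: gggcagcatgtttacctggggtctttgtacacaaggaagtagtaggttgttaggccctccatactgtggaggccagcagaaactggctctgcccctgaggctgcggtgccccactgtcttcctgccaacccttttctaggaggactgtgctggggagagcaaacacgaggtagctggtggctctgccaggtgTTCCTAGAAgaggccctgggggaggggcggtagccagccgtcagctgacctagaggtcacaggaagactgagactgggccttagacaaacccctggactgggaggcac
Igfals, first start, chr17:24877594-24877893, plus strand: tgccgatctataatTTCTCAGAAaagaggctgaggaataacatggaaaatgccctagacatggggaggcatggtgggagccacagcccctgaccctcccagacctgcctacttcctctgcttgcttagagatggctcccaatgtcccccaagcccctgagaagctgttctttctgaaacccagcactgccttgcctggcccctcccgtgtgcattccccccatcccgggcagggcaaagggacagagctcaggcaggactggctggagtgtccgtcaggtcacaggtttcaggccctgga
Prlr, second start, chr15:10223656-10223955, plus strand: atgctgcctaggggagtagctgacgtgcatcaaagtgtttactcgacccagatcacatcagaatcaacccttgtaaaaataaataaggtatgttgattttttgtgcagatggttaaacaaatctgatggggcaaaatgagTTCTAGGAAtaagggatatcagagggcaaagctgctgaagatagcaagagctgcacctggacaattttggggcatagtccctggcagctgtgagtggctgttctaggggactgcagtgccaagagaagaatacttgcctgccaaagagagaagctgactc

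No window of Susd4, Hsd3b2 or Cyp2b13 held the letters TTCNNNGAA. On both strands, 0 of the 10 windows held the HNF4 letters CAAAGTCCA or the letters TATAAA, which occur in 0.475% and 13.6% of all windows. A match is a string of letters and was not tested for binding.

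Background-subtracted intensities of 24048 probes were deposited for each array, and 9907 to 11564 probes stood above the noise limit of their array (17.1 to 32.5 intensity units). Of the 9 probes, 7 were above that limit on at least 6 arrays and entered the fit of 11317 probes. The other 2 were a probe of Hsd3b2 (above the limit on 5 arrays) and a probe of Prlr (on 0 arrays). Libraries stood apart before any grouping by genotype. The animals that stood apart were transgenic replicates 1 and 2 and wildtype replicates 1, 2, 8 and 9. Their levels of Susd4, Cyp2b13 and the brightest Hsd3b2 probe did not overlap those of the other 10 animals. Their levels of Igfals and Prlr did overlap. In those 6 arrays 9907 to 10252 probes were above noise, against 9956 in wildtype replicate 3 and 10690 to 11564 in the other 9. Of 12 hepatocyte markers listed, 5 had a probe in the fit and all 5 were above noise on all 16 arrays. Their summed intensity also followed the division, narrowly in transgenic liver. It was 120463 and 104521 in transgenic replicates 1 and 2, against 84792 to 103164 in the other transgenic animals. In wildtype replicates 1, 2, 8 and 9 it was 111690 to 123674, against 73431 to 99193 in the other wildtype animals. Not every marker did so. Apoa2, the brightest, read differently on 2 scales. Its deposited intensity, as used in the sums, was 44556.9 to 54594.1 in wildtype replicates 1, 2, 8 and 9, against 30347.1 to 42460.5 in the others. In transgenic liver it was 50341.6 and 41751.2 in replicates 1 and 2, overlapping 34951.7 to 44812.9 in the others. Its normalized log2 level, however, gave r = -0.47 with Susd4, and the other markers gave 0.52 to 0.90.

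Susd4 was either clearly present or not above noise. Its single probe gave 419.3 and 372.9 intensity units in transgenic replicates 1 and 2, and -31.2 to -14.8 in the other 5 transgenic animals. In wildtype liver it gave 409.2, 385.4, 278.1 and 294.7 in replicates 1, 2, 8 and 9, and -28.2 to -15.2 in the other 5. No animal lay between these levels, and both genotypes held animals of either kind (2 of 7 transgenic and 4 of 9 wildtype above noise). Susd4 was above noise on 6 arrays, the fewest with which a probe entered the fit.

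Cyp2b13 ran the other way. Its intensity was -5.7 at the lowest, 374.8 at the median and 1236.9 at the highest in transgenic liver, against 1.3, 307.2 and 1528.8 in wildtype liver. It did not exceed the noise limit in transgenic replicates 1 and 2 (-5.3 and -5.7) or in wildtype replicates 1, 2, 8 and 9 (1.3 to 30.5), which are the animals that had Susd4. In the 10 animals without a Susd4 signal it spanned 277.6 to 1236.9 in transgenic and 307.2 to 1528.8 in wildtype liver. Where present, Cyp2b13 was thus graded, whereas Susd4 in those animals was uniformly below noise.

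**Figure D1:**
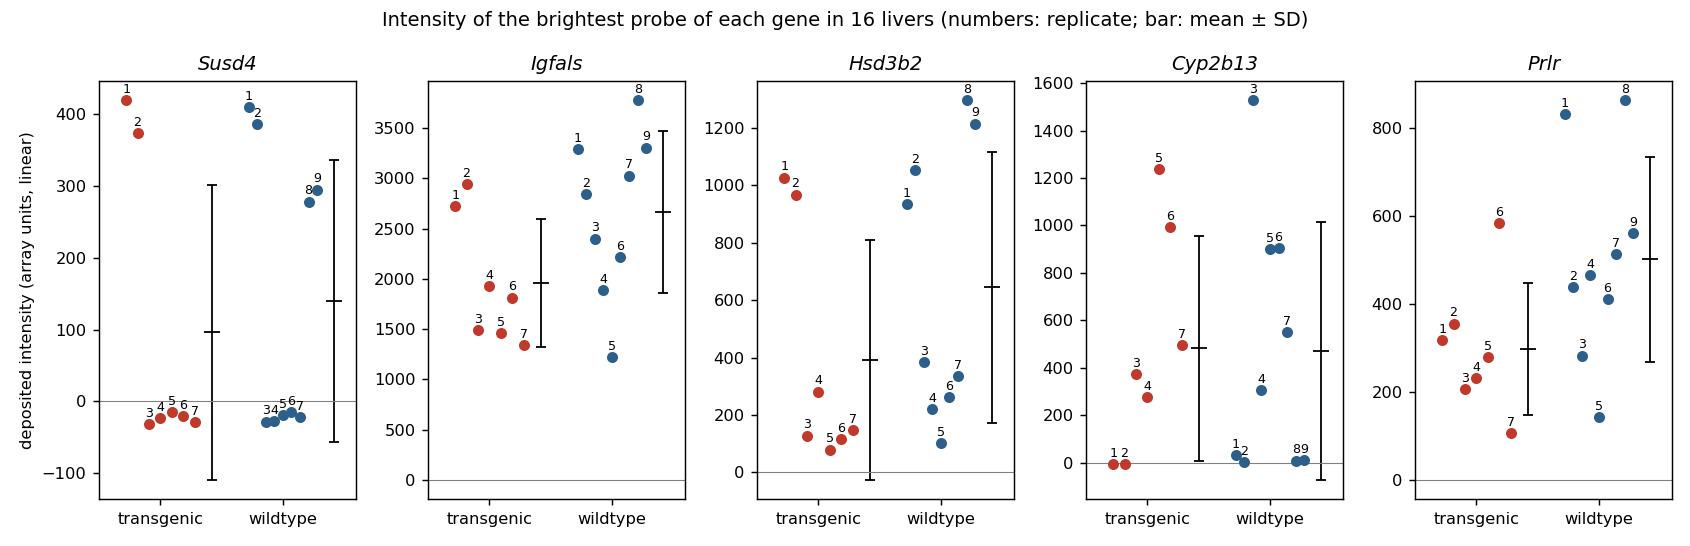
Deposited intensity (linear array units) of the brightest probe of each gene, transgenic animals left and wildtype right in each panel; points are animals with their replicate number, and black bars are mean ± SD. Susd4 is at 278.1 to 419.3 in transgenic 1 and 2 and wildtype 1, 2, 8 and 9 and below 0 elsewhere, and Cyp2b13 is at 30.5 or less in the same animals.

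Hsd3b2, read by 3 probes in the fit, was high where Susd4 was present. With its brightest probe (scl015493.1_155-S) it gave 1027.2 and 968.0 in transgenic replicates 1 and 2 and 79.3 to 281.9 in the other transgenic animals. In wildtype liver it gave 935.7, 1052.4, 1297.7 and 1215.7 in replicates 1, 2, 8 and 9 and 102.5 to 385.1 in the others. The low values were still above noise in all animals, unlike those of Susd4. Hsd3b2 varied 16.4-fold from the highest to the lowest intensity. The probe scl0015493.2_185-S varied 15.7-fold. The probe scl0015493.2_83-S ran from 21.9, not above noise, to 226.5 in transgenic liver and from 38.1 to 269.4 in wildtype liver. Their log2 levels followed the brightest probe across the 16 animals at r = 0.99 and 0.96. The fourth probe, scl0015493.1_84-S, stayed between 3.8 and 41.7 and carries little information.

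Genes of the Hsd3b family are close relatives, and the probe sequences were not used here, so a probe of Hsd3b2 may also read other members. The probes named Hsd3b3 and Hsd3b4 were above noise on 0 arrays. The named probe of Hsd3b7, an enzyme of bile acid synthesis, gave 6450.9 to 9700.7 in transgenic and 6833.1 to 11370.5 in wildtype liver, without the split seen for Hsd3b2. Hsd3b5, the male form known from mouse liver, had no named probe. Members of the family are also expressed in mouse kidney. The 2 kidney markers with a named probe (Slc34a1 and Nphs1) were above noise on 0 arrays.

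Igfals was abundant in every liver. Its intensity was 1343.2 at the lowest, 1814.4 at the median and 2946.2 at the highest in transgenic liver, against 1221.8, 2846.1 and 3778.7 in wildtype liver. Transgenic replicates 1 and 2 were the 2 highest of their genotype (2724.1 and 2946.2), the other 5 lying at 1343.2 to 1929.8. In wildtype liver replicates 8, 9, 1 and 2 gave 3778.7, 3305.0, 3289.5 and 2846.1, but replicate 7, with no Susd4 signal, gave 3027.8. The animals therefore formed a graded series for Igfals, 3.09-fold from the highest to the lowest intensity.

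Prlr followed the division least. Its detected probe gave 106.8 at the lowest, 279.7 at the median and 583.3 at the highest in transgenic liver, against 143.6, 465.1 and 863.6 in wildtype liver. The highest transgenic value was that of replicate 6, which had no Susd4 signal, while replicates 1 and 2 gave 318.7 and 355.4. Wildtype replicates 8 and 1 were the highest of all animals (863.6 and 831.5), and wildtype replicate 5 and transgenic replicate 7 the lowest (143.6 and 106.8). The receptor is known as female-predominant in rodent liver, and across these animals its log2 level gave r = 0.61 with Susd4, 0.84 with Igfals and -0.52 with Cyp2b13. The second Prlr probe (scl019116.4_17-S) was below 0 in every animal.

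Over the 16 animals the log2 level of Cyp2b13 spanned 5.11, and 12 of the 11317 tested probes, itself included, spanned as much. Susd4 spanned 4.66 (17 probes as wide), Hsd3b2 3.43 (70 probes), Prlr 2.62 (167 probes) and Igfals 1.58 (700 probes). These spans describe what chose the genes and support nothing further. The correlations between genes are likewise descriptions over 16 animals that share 1 broad division. Susd4 and Hsd3b2 gave r = 0.92, Igfals and Hsd3b2 0.92, and Susd4 and Cyp2b13 -0.92.

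**Figure D2:**
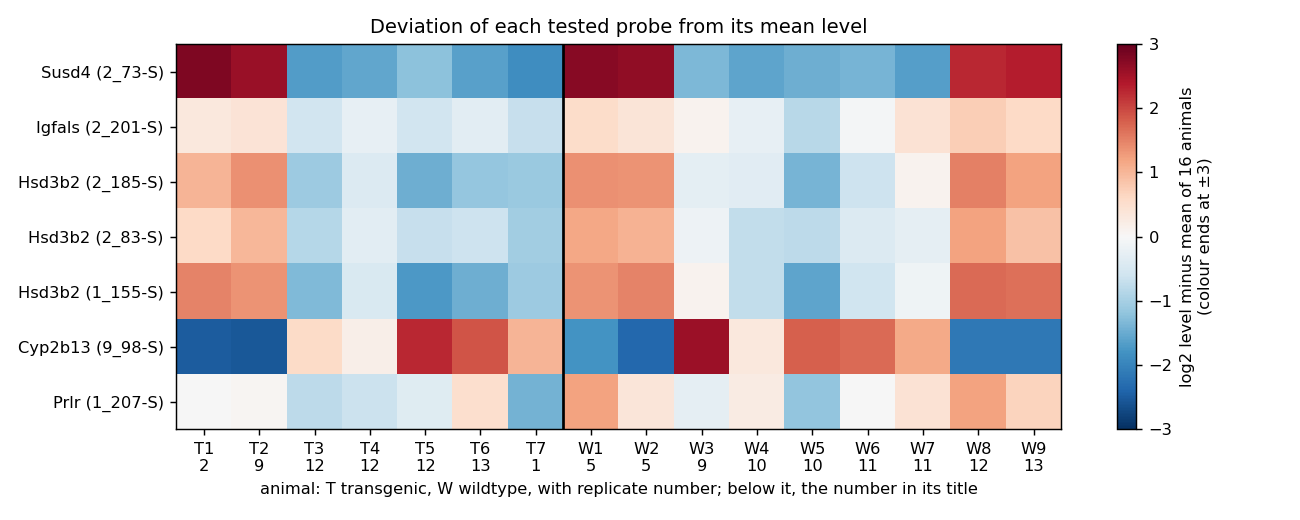
Log2 level of each tested probe (rows, gene with the end of its probe identifier) minus its mean over 16 animals, in colour; columns are transgenic animals 1 to 7 left of the line and wildtype animals 1 to 9 right of it, with the number of the title below. Susd4 and Hsd3b2 are above their mean in transgenic 1 and 2 and wildtype 1, 2, 8 and 9, where Cyp2b13 is below it; the Prlr row is the least regular.

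The comparison of genotypes asks which liver transcripts differ with the Lactb transgene. limma called 0 of 11317 probes at an adjusted p under 0.05, a share of 0%, and so none of the 7 probes; the lowest adjusted p of any probe was 0.932. An unadjusted p under 0.05 was reached by 332 probes (2.93%). On the log2 scale Susd4 averaged 5.86 ± 2.10 in transgenic and 6.51 ± 2.11 in wildtype liver (SD, n = 7 and 9), a difference of -0.65 (95% interval -2.65 to 1.35). Igfals averaged 10.89 ± 0.44 in transgenic and 11.31 ± 0.50 in wildtype liver, a difference of -0.42 (-0.883 to 0.0379). The spread inside each genotype exceeded the difference of the means for both genes.

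Hsd3b2 averaged 8.25 ± 1.35 in transgenic and 9.07 ± 1.22 in wildtype liver, a difference of -0.82 (-2.04 to 0.391), and its other probes in the fit gave -0.73 and -0.49. Prlr averaged 8.31 ± 0.64 in transgenic and 8.98 ± 0.75 in wildtype liver, a difference of -0.67 (-1.35 to -0.00333), with 6 of 7 transgenic animals below the wildtype mean. Cyp2b13 averaged 8.19 ± 1.94 in transgenic and 7.97 ± 2.0 in wildtype liver, a difference of 0.22 (-1.65 to 2.10). Leaving out single animals moved the Cyp2b13 difference between -0.13 and 0.67, so it has no settled sign. A lower transgenic mean was found for 6 of the 7 probes and for 51.3% of all tested probes. The same contrast chose some of the genes, Prlr among them, so nothing is read from that count. Nor is anything read from the Prlr interval or from its 6 of 7 animals. Values of the 2 genotypes overlapped for all 9 probes; over all tested probes 0.00884% had no overlap.

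**Figure D3:**
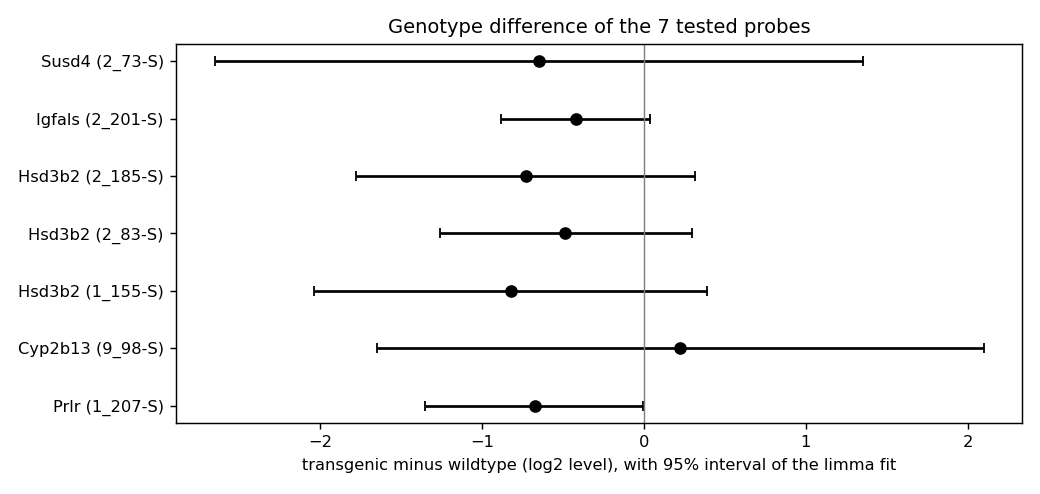
Transgenic minus wildtype difference of log2 level for the 7 tested probes (points) with the 95% interval of the limma fit (bars). All points but that of Cyp2b13 (0.22) lie below 0, and the intervals of Susd4, Cyp2b13 and the Hsd3b2 probe 1_155-S reach beyond 2 log2 units on one side.

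Numbers 9, 12 and 13 occur in titles of both genotypes, and the difference turned round between them. For Susd4 the transgenic minus wildtype difference of log2 level was 3.93 within number 9, -3.74 within number 12 and -3.99 within number 13. For Cyp2b13 it was -5.11, 3.14 and 4.02, and for Hsd3b2 1.25, -2.88 and -3.13. For Igfals it was 0.30, -1.20 and -0.91, and for Prlr 0.33, -1.81 and -0.17. Each number holds 1 wildtype animal and 1 transgenic animal (3 within number 12), so these are single differences without a test. Within a genotype, 6 pairs of animals share a number and 51 pairs do not. The median difference in Cyp2b13 was 1.01 log2 units in pairs with a shared number (at most 2.10) and 2.67 in the others. For Hsd3b2 it was 0.65 (at most 1.26) and 1.62, for Prlr 0.43 (at most 1.43) and 0.77, and for Igfals 0.33 (at most 0.60) and 0.55. Animals with a shared number could thus still differ widely, as transgenic replicates 4 and 5 did in Cyp2b13 (277.6 and 1236.9). For Susd4 a shared number went with the same state in all 6 pairs, but in all of these except wildtype replicates 1 and 2 both animals were below noise, where a small gap shows no likeness.

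Markers of macrophages, taken as a sum, were low in the animals that had Susd4 and higher in those that had Cyp2b13. Of 18 macrophage genes listed, 8 had a probe in the fit, and their summed intensity ran from 1173 to 14379 in transgenic and from 1182 to 11503 in wildtype liver. It was 1321 and 1173 in transgenic replicates 1 and 2 and 1303, 1336, 1182 and 1819 in wildtype replicates 1, 2, 8 and 9, all lower than in any other animal (3289 in wildtype replicate 3, 5290 in wildtype replicate 7 and higher elsewhere). Gpnmb, a lysosomal glycoprotein of lipid-laden macrophages, gave -2.0 and -24.6 in those transgenic and -7.3 to -0.9 in those wildtype animals. In the other animals Gpnmb reached 1382.7 to 4441.3 in transgenic and 567.6 to 3333.2 in wildtype liver. Csf1r and C1qb overlapped across the division: wildtype replicate 3 gave 186.0 and 424.5, below the 199.0 and 560.8 of wildtype replicate 9. Endothelial markers (4 of 10 in the fit) had sums of 5531 to 6491 in transgenic and 4389 to 6421 in wildtype liver. Neutrophil markers (2 of 5 in the fit) summed to 36 and 42 in transgenic replicates 1 and 2 and to 236 to 317 in the other transgenic animals. In wildtype liver they summed to 29 to 86 in replicates 1, 2, 8 and 9, 49 in replicate 3 and 123 to 306 in the others. S100a9 carried that split (r = -0.85 with Susd4). Cxcr2 did not follow Susd4 (r = -0.08) and was highest in wildtype replicate 1 (57.3). Cholangiocyte markers (2 of 7) summed to 322 and 358 in transgenic replicates 1 and 2, against 916 to 1790 in the other transgenic animals, and to 225 to 461 in wildtype replicates 1, 2, 8 and 9, against 470 to 2741 in the others. Spp1 made up most of that sum, and Cldn4 did not follow Susd4 (r = -0.13). Stellate and fibroblast markers (6 of 11) ran from 6293 to 9032 in transgenic and 5720 to 9906 in wildtype liver. Their sum was 5720 to 6724 in wildtype replicates 1, 2, 8 and 9, against 7054 to 9906 in the other wildtype animals. In transgenic liver replicates 1 and 2 (6293 and 6664) overlapped replicate 3 (6470). Single genes of that list ran from r = -0.85 (Col3a1) to 0.60 (Lrat) with Susd4. For lymphocytes (3 of 7) the sums were 407 to 1374 in transgenic and 448 to 1421 in wildtype liver. Among these genes Ighm followed Susd4 (r = 0.90), whereas Igkc and Cd3e gave r = 0.18 and -0.41. Adipocyte markers (2 of 5) summed to 21985 and 16738 in transgenic replicates 1 and 2, against 9612 to 14270 in the other transgenic animals. They summed to 19056 to 21370 in wildtype replicates 1, 2, 8 and 9, against 11559 to 17476 in the others. Car3 made up nearly all of that sum, which is in effect a reading of 1 gene. Fabp4 gave only 13.3 to 57.9 in transgenic and 17.1 to 41.8 in wildtype liver. The part of other cells in the levels of the 5 genes was not tested, and in whole liver fewer hepatocytes and less RNA per hepatocyte cannot be told apart.

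Growth hormone dependence itself was not measured, but part of the pathway was read. Of 21 genes of growth hormone signalling, 9 had a probe in the fit, 0 were called, and 6 had a lower mean in transgenic liver, with a median difference of -0.05 against 0.00 for all tested probes. Among the larger differences were those of Socs2, a feedback inhibitor induced by growth hormone (-0.11), Ptpn11, a phosphatase of receptor signalling (-0.08), and the adaptor Shc1 (0.08). Socs2 gave 933.6 and 908.6 in transgenic replicates 1 and 2 and 355.9 to 856.0 in the other transgenic animals. In wildtype replicates 1, 2, 8 and 9, however, it gave 708.5, 578.2, 647.2 and 325.9, against 668.4 to 1276.3 in the other wildtype animals. In transgenic liver the animals with Susd4 were thus the 2 highest for Socs2, and in wildtype liver 3 of the 4 were lower than every other animal. No probe in the fit was named Ghr, Stat5a or Stat5b.

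Igf1, the growth factor that the Igfals product holds in complexes, divided the animals as Susd4 did. Its intensity was 6474.9 and 6953.6 in transgenic replicates 1 and 2 and 3299.0 to 4011.7 in the other transgenic animals. In wildtype replicates 1, 2, 8 and 9 it was 6173.7, 7050.3, 6532.4 and 6355.6, against 3646.9 to 4885.3 in the others. Of 14 genes listed for the IGF axis 5 were in the fit and 0 were called. The differences between genotypes were 0.29 for Igfbp5, -0.25 for Igf1, -0.21 for Igfbp4 and 0.06 for Stc2, with a median over the 5 of -0.01. Igfbp4, an IGF binding protein, gave 10866.5 and 10509.7 in transgenic replicates 1 and 2, against 5373.5 to 6604.8 in the other transgenic animals.

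Cyp2b9, the neighbour of Cyp2b13 in sequence and also female-predominant in mouse liver, varied with it. The probe of Cyp2b9 gave -1.3 at the lowest, 450.1 at the median and 1360.9 at the highest in transgenic liver, against -21.6, 379.4 and 1937.5 in wildtype liver, with a difference of 0.02 (SE 0.82) on the log2 scale. Wildtype replicate 3 was the highest of all animals for both genes, and transgenic replicate 5 the highest of its genotype. The 2 genes are close relatives, so a probe of one may read the other.

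**Figure D4:**
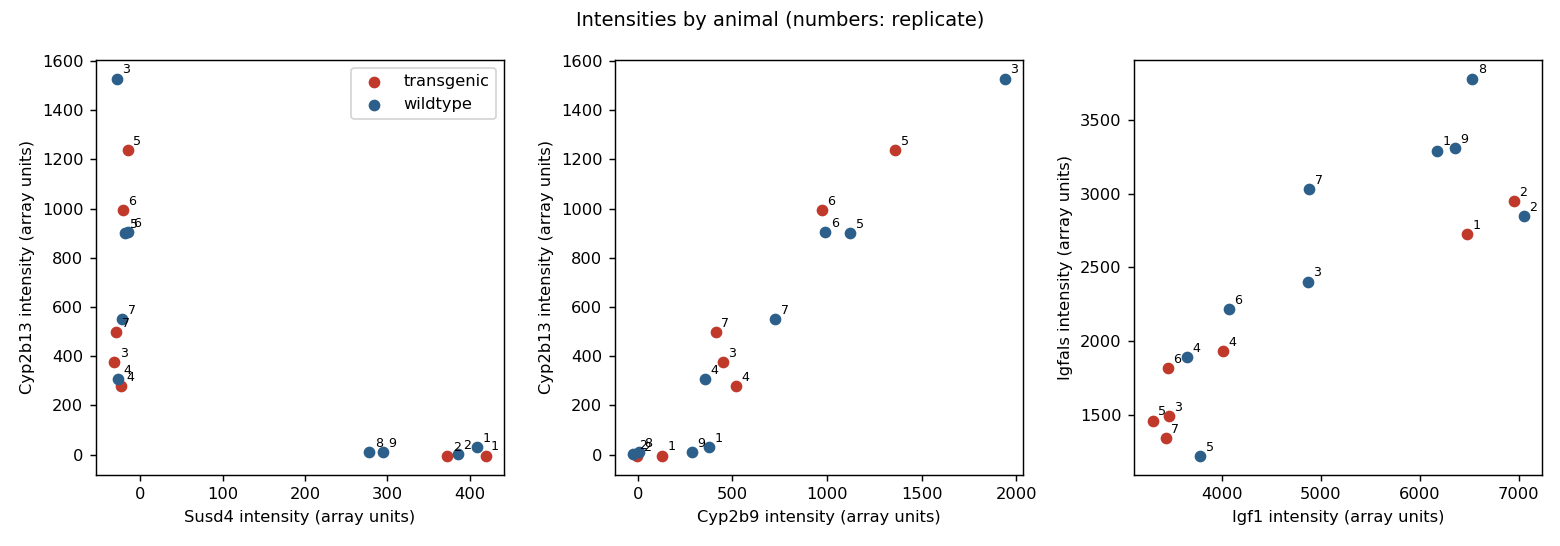
Deposited intensities (linear array units) of Cyp2b13 against Susd4, Cyp2b13 against Cyp2b9, and Igfals against Igf1; each point is an animal with its replicate number, transgenic red and wildtype blue. No animal has both Susd4 and Cyp2b13 above noise, and the highest Cyp2b13 and Cyp2b9 (1528.8 and 1937.5) are both in wildtype 3.

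Among male-biased liver genes 13 of 36 listed were in the fit. Of these, 10 had a lower mean in transgenic liver, 0 were called, and the median difference was -0.19. The largest were Mup2 (-1.51), Mup4 (-1.36) and Mup1 (-0.59), urinary pheromone carriers whose near-identical copies a probe may not separate, followed by Serpina1e, a protease inhibitor (-0.26). Female-biased genes had 9 of 34 in the fit, with 6 higher in mean, 0 called and a median of 0.14. The largest were Prom1 (1.37), Lpl, lipoprotein lipase (0.76), the acyl-CoA thioesterase Acot3 (-0.56) and the retinol dehydrogenase Rdh16 (-0.43). The summed intensity of both lists followed the division, but not every gene in them did. Acot3 and Rdh16 gave r = 0.39 and 0.74 with Susd4, against the female-biased sum, and the other genes of that list gave negative r. Gstp1 gave r = -0.31, against the male-biased sum. Lpl was a large part of the female-biased sum where it was high (3346.0 of 9947 in wildtype replicate 4). In wildtype liver that sum followed the division only with Lpl included. Without Lpl, wildtype replicate 1 (sum 9205, Lpl 99.2) would lie above wildtype replicate 4. Mup1 was a large part of the male-biased sum (57548.2 of 148889 in transgenic replicate 1). Male-biased genes summed to 148889 and 145818 in transgenic replicates 1 and 2, against 87961 to 101994 in the other transgenic animals, and to 146364 to 157726 in wildtype replicates 1, 2, 8 and 9, against 85530 to 120208 in the others. Female-biased genes summed to 6826 and 5985 in transgenic replicates 1 and 2, against 10710 to 13798 in the other transgenic animals, and to 5678 to 9205 in wildtype replicates 1, 2, 8 and 9, against 9947 to 14771 in the others. Single genes varied: in transgenic replicates 1 and 2, which had Susd4, Lpl gave 152.7 and 135.2, against 2330.1 to 3142.9 in the other transgenic animals. In wildtype replicates 1, 2, 8 and 9 Lpl gave 99.2 to 217.7, against 1561.2 to 3346.0 in the other wildtype animals. For Rdh16 transgenic replicates 1 and 2 gave 740.2 and 871.9, against 335.6 to 664.8 in the others. In wildtype liver Rdh16 gave 760.0 to 1003.2 in replicates 1, 2, 8 and 9, overlapping 408.8 to 823.7 in the others.

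Regulators of these genes had 6 of 21 in the fit, 3 higher and 3 lower in mean, and 0 called (median -0.03). The largest differences were those of Cebpa, a factor of the differentiated hepatocyte (-0.31), Onecut2, a cut-homeobox factor (-0.29), the oestrogen receptor Esr1 (0.12) and Cebpb (0.11). Onecut2 gave 420.0 and 556.6 in transgenic replicates 1 and 2, against 278.4 to 358.0 in the other transgenic animals. In wildtype replicates 1, 2, 8 and 9 it gave 504.7 to 545.1, against 313.7 to 450.8 in the others. Cux2, a repressor of male-biased genes in female liver, was named but above noise on too few arrays to enter the fit.

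The genes most like each of the 5 were read from the correlation of log2 levels over 16 animals with 3966 other named genes. For Susd4 these were Cyp51 of cholesterol synthesis (r = 0.98), Ttc39c (0.97) and Cmah (0.97), and the most opposite were Lpl (-0.98), the proton pump subunit Atp6v1e1 (-0.98) and the sterol transporter Abcg1 (-0.97). Cyp51 gave 79.9 to 669.3 in transgenic and 77.7 to 814.2 in wildtype liver. For Hsd3b2 they were Mup2 (0.98), Ces3b (0.97) and Mup4 (0.97), opposed by Prom1 (-0.98), Klf6 (-0.98) and Ets2 (-0.97). Many genes share the division of the animals, so a high r here does not single out a pair.

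For Igfals the most alike were Klkb1 (plasma kallikrein), Plpp3 and Mup2 (r = 0.91 each), and the most opposite were Leprot (-0.94), Golm1 (-0.93) and Cst3 (-0.93). Leprot encodes a protein that lowers the growth hormone receptor on the cell surface. It gave 462.0 to 777.8 in transgenic and 397.7 to 898.2 in wildtype liver. For Cyp2b13 the most alike were the lysosomal mannosidase Man2b1 (0.95), Adam11 (0.95) and Ddah1 (0.94), and the most opposite the complement component C6 (-0.96), Cyp51 (-0.95) and Serpina12 (-0.94). Prlr had no such close partner: Gjb2, a gap junction protein, and Dhrs4 gave 0.80 and Chtop 0.79, with Cttnbp2nl (-0.84), Leprot (-0.83) and Klhl6 (-0.83) at the other end.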

How the data were processed

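Liver RNA was amplified to cRNA carrying biotin and hybridised to Illumina expression chips, per the labels' protocols. The deposited value table holds an intensity per probe and animal on a linear scale; BeadStudio 1.5.1.3 is the tool in the submitters' processing notes. No source used here gives the authors' scaling. Values below 0 show that background had been subtracted, and array means of 331.4 to 333.5 that the arrays had been scaled. A further table has 128 columns named by chip position alone and was not used, so slides could not be tied to animals. Intensities were corrected per array with the normexp model (saddle fit, offset 16), taken to log2 and then quantile normalized (limma 3.58.1 in R 4.3.3). A probe counted as above noise where it exceeded 1.645 times the root mean square of the negative values of its array, and probes above noise on at least 6 arrays were tested with lmFit and eBayes (two-sided, Benjamini-Hochberg over all of them). The offset and the normalization compress folds of dim probes, and 7 against 9 arrays limit the precision.

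Of 9523 probes with a padded gene number of at least 5 digits, 8884 matched RefSeq (GRCm38.p6), and 9 more carry an accession. A gene of a list was read by its probe of highest mean. From each list up to 4 genes of largest difference were named (1 such gene is not reported here), and for each of the 5 genes the 3 with the highest and the 3 with the lowest correlation. Wildtype replicate 3 and Cux2 were singled out after their values were seen. The 5 genes and all lists were chosen with earlier results of these data known. The fit was tested on group-centred values of these same arrays with known changes added, and the share recovered is not reported here.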

Additional observations from a re-analysis of the deposited data

How the results depend on the processing

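Every alternative left 0 probes called by limma, with 219 to 1509 probes at an unadjusted p under 0.05; the lowest adjusted p of any probe, 0.150, came with a fixed block for the title number. The alternatives were another background floor, offset 50, no quantile normalization, cyclic loess, all probes or those above noise on all arrays, trended and robust variances, array weights, the block and leaving out single animals. The planned slide block was not run, since no slide is tied to an animal. None of the tested probes of Susd4, Igfals, Hsd3b2 and Prlr changed sign under any of these. The same contrast in these animals chose Igfals and Prlr, so their unchanged sign supports nothing further. With the fixed replicate block the differences were -1.62 for Susd4, -0.69 for Igfals, -1.77 for the brightest Hsd3b2 probe and 1.03 for Cyp2b13. Same-numbered animals of different genotype correlated at -0.465 to -0.134 in their deviations from the group means. With the number as a random block, the fitted correlation within a number was 0.168. The pairs are few, and those of number 12 all hold wildtype replicate 8, so these values cannot decide whether the number marks a shared source. The difference with the fixed block is therefore not taken as a better measure of genotype. Without single animals the ranges were -1.18 to -0.34 for Susd4, -0.55 to -0.35 for Igfals, -1.15 to -0.61 for Hsd3b2, -0.86 to -0.50 for Prlr and -0.13 to 0.67 for Cyp2b13. The Cyp2b13 difference turned negative without transgenic replicate 5 (-0.13) or 6 (-0.07), or wildtype replicate 2 (-0.06), 8 (-0.03) or 9 (-0.03), and reached 0.67 without transgenic replicate 2. Susd4 reached -1.18 without transgenic replicate 1. Susd4, Cyp2b13 and the Hsd3b2 probe scl0015493.2_83-S have no value with probes above noise on all arrays. Low levels of Susd4 and Cyp2b13 lie under the noise limit, so the size of their span depends on the offset.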

Other observations

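Cyp2b9 was above noise in 3 animals in which Cyp2b13 was not. Transgenic replicate 1 had an intensity of 129.9 for Cyp2b9 and -5.3 for Cyp2b13. Wildtype replicates 1 and 9 had 379.4 and 286.2 for Cyp2b9, with 30.5 and 9.1 for Cyp2b13. In transgenic replicate 2 and wildtype replicates 2 and 8 neither gene was above noise (-1.3, -21.6 and 7.2 for Cyp2b9). The probe sequences were not used here, and what the 2 probes share was not tested.

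Wildtype replicate 3 combined values seen apart in other animals. It had the highest Cyp2b13 and Cyp2b9 of all 16 livers (1528.8 and 1937.5) and no Susd4 signal (-28.2). Its Gpnmb intensity of 567.6 was the lowest among animals without Susd4, and its count of 9956 probes above noise was close to that of the 6 animals that had Susd4. Its intensity of 385.1 with the brightest Hsd3b2 probe was the highest among animals without Susd4, and so was 78.3 with the probe scl0015493.2_83-S. With the probe scl0015493.2_185-S it gave 146.3, below wildtype replicates 7 (222.9) and 4 (159.8) and transgenic replicate 4 (153.3).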
